A study of Mus musculus with 8 samples.

Results

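The genes of DNA methylation and demethylation examined here are the maintenance methyltransferase *Dnmt1* and its partner *Uhrf1*, the *de novo* methyltransferases *Dnmt3a* and *Dnmt3b*, their cofactor *Dnmt3l*, the dioxygenases *Tet1*, *Tet2* and *Tet3*, and the glycosylase *Tdg*. Members were chosen by name from 16593 genes on Illumina mouse bead arrays. Of the 9 genes listed, 7 had a probe that carried their symbol, and *Tet1* and *Tet2* were not analysed here. The 7 genes had 13 probes, of which 4 were detected on all 8 arrays and 5 on none. Detected means a detection p-value below 0.01 against the negative control beads of the array.

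RNA from 8 kinds of cultured mouse cells was hybridised, 1 array to each. MEFs (embryonic fibroblasts) and NSCs (neural stem cells from brain), both with a Tet-On background, and iNSCs (neural stem cells induced from MEFs by *Brn4*, *Sox2*, *Klf4* and *Myc*) formed the somatic samples. ESCs (embryonic stem cells, Tet-On background), NSC 2F iPSCs (made from NSCs with *Oct4* and *Klf4*) and MEF 4F iPSCs (made from MEFs with *Oct4*, *Sox2*, *Klf4* and *Myc*) formed the control pluripotent lines. The clones iNdiPSC-1 and iNdiPSC-4 were derived from the iNSCs with *Oct4* and *Klf4*. The number 4 is that of the labels, whereas the study's text describes clones numbered 1 and 2, so which of its clones the array holds is not settled. By the labels, the iNSCs and both clones had C3H as their background strain and the remaining 5 samples B6D2F1/J, so strain and the iNSC origin cannot be told apart. The labels also mark the iNSCs as pluripotent, whereas the design describes them as neural stem cells, and they were counted as somatic. The 3 iPSC types were grown on feeder cells in 2i medium, and the medium of the ESCs is not given in the sources used here. Both clones came from the same iNSC culture, and no other cell type had more than 1 array, so p-values measure only the spread between different lines or between sister clones.

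The marker levels set the somatic and pluripotent arrays apart. All 8 pluripotency markers examined, among them *Pou5f1* and *Nanog*, were detected on each of the 5 pluripotent arrays and at most 2 on a somatic array. Of 6 neural stem cell markers with a probe, 4 were detected in NSCs, 5 in iNSCs and 2 on each other array. Of 7 fibroblast markers, 7 were detected in MEFs, 0 in iNSCs, 1 in NSCs, 5 and 4 in the clones, 5 in each iPSC control line and 2 in ESCs. Their summed level (linear scale) was 28476 in MEFs, 1317 in NSC 2F iPSCs, 994 in MEF 4F iPSCs, 522 and 365 in the clones, 280 in ESCs, 234 in NSCs and 148 in iNSCs, and the part of feeder cells in the values below was not tested. The arrays were of similar depth, with 11087 to 12128 of 25697 probes detected, and no pair of arrays held identical values.

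In mammals, methylation of CpG cytosines is copied after replication by DNMT1, which UHRF1 guides to hemimethylated sites, and is laid down anew by DNMT3A and DNMT3B, which DNMT3L stimulates without being an active enzyme itself. TET enzymes oxidise methylcytosine, and TDG excises some of the oxidised bases so that repair can restore a plain cytosine. *Dnmt3b* and *Dnmt3l* are known for their high expression in embryonic and germ cells and low expression in most differentiated cells.

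The sequences just upstream of the genes that differed most, *Dnmt3b* and *Dnmt3l*, are shown because these promoters differ in CpG content although the genes were high on the same arrays. They were taken from RefSeq (GRCm38.p6), on the plus strand and 5′ to 3′, ending at the base before the annotated gene (for *Dnmt3l*, before the most upstream of its 3 starts), with each CpG in capitals.
Dnmt3b, chr2:153649199-153649410: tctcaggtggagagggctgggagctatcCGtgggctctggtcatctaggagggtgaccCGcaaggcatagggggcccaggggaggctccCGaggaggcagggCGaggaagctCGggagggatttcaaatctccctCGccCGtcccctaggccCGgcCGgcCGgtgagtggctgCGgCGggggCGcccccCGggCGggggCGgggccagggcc
Dnmt3l, chr10:78042037-78042286: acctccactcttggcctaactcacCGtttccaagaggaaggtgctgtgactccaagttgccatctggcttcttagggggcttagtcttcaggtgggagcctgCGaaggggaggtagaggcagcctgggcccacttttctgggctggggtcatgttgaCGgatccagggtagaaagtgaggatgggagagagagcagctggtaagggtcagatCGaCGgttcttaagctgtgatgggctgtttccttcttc
The stretch of *Dnmt3b* is 212 bases long and holds 16 CpGs, and that of *Dnmt3l* is 250 bases long and holds 5. In the 250 bases before the start given for *Dnmt3b*, which include bases of the annotated gene, there were 21 CpGs, and 85.2% of all 32851 such stretches (27025 genes) had at most as many. For *Dnmt3l* the share was 49.6% and the median over all stretches was 6. The octamer ATGCAAAT, the word bound by OCT4-type factors, was searched on both strands and was in none of the 14 stretches of the 7 measured genes, against 1.6% of all stretches.

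*Dnmt3l* separated the pluripotent cells from the somatic cells most widely. On the log2 scale of the normalised values (neqc, described under the processing), its first probe gave 4.39 in MEFs, 4.25 in NSCs and 4.33 in iNSCs, and was not detected on any of these 3 arrays. It gave 12.11 in iNdiPSC-1, 12.57 in iNdiPSC-4, 12.01 in NSC 2F iPSCs, 11.82 in MEF 4F iPSCs and 12.41 in ESCs. Thus all 5 pluripotent arrays were high and all 3 somatic arrays at background, with raw intensities of 3497 to 5846 against 107 to 116. Setting the 3 control lines against the 3 somatic samples, *Dnmt3l* rose at least 121-fold, with undetected values set to the lowest value of a detected probe on their array (4.97 to 5.27 over the arrays). The log2 difference of the values as computed was 7.75 ± 0.25 (standard error, adjusted p = 5.78e-05 from limma). Its second probe ran from 4.18 to 4.42 on the somatic arrays, undetected, and from 11.69 to 12.35 on the pluripotent ones, with the control lines at least 108-fold above the somatic samples. Among the pluripotent arrays, the neighbours in the order MEF 4F iPSCs, NSC 2F iPSCs, iNdiPSC-1, ESCs and iNdiPSC-4 differed by at most 0.30, less than the 0.61 that 95% of the 8338 genes detected in either clone stayed within between the sister clones. From the lowest to the highest of the 5 arrays the range was 0.76, which is wider than that.

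*Dnmt3b* was as sharply divided, but its first probe was detected on every array. The level was 5.39 in MEFs, 6.46 in NSCs and 6.52 in iNSCs. It was 11.52 in iNdiPSC-1, 11.85 in iNdiPSC-4, 12.21 in NSC 2F iPSCs, 12.31 in MEF 4F iPSCs and 12.07 in ESCs. The pluripotent arrays lay above every somatic array with no overlap (11.52 against 6.52 at the nearest), and MEFs lay 1.08 below NSCs, which did not differ from iNSCs beyond the spread between clones (0.06). In raw intensity the probe read 146 in MEFs, where it was close to the detection limit, 199 in NSCs, 185 in iNSCs and 2930 to 4862 on the pluripotent arrays. The control lines were 67.4-fold above the somatic samples (log2 difference 6.07 ± 0.36, standard error, adjusted p = 0.000357 from limma). The second probe, which was annotated to another transcript of the gene, was not detected on any somatic array (4.29 to 4.59) and lay between 6.25 and 7.17 on the pluripotent ones, where the control lines were at least 3.57-fold higher (adjusted p = 0.00142 from limma when every probe was tested).

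**Figure D1:**
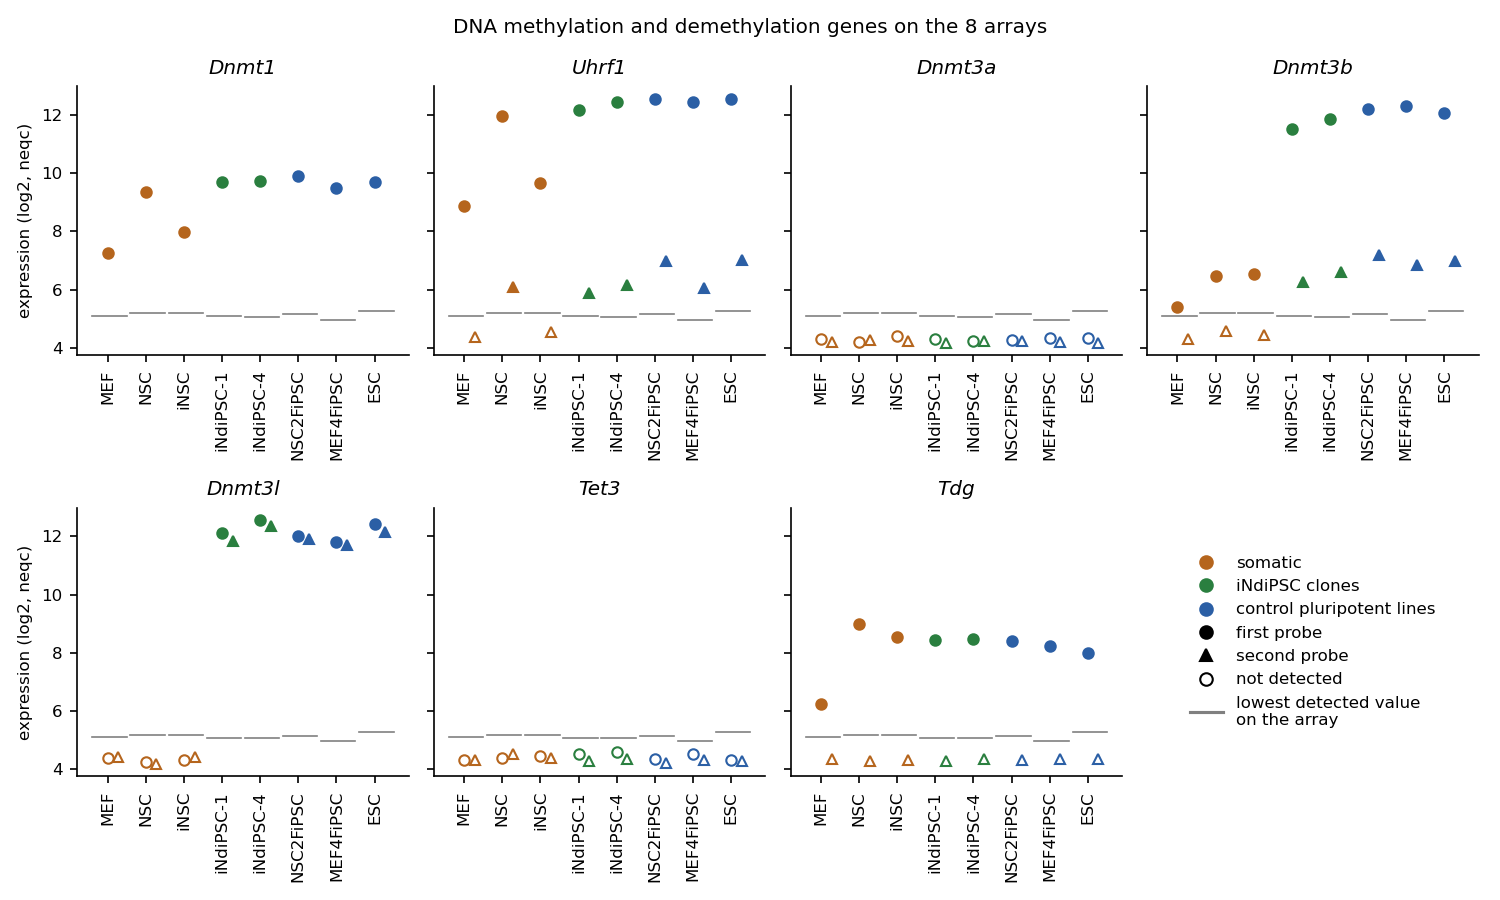
Normalised expression (log2, y axis) of the 7 measured genes on the 8 arrays (x axis), with circles for the first and triangles for the second probe, open where the probe was not detected, and grey lines at the lowest detected value of each array. Both probes of Dnmt3l are open on the 3 somatic arrays and between 11.69 and 12.57 on the 5 pluripotent ones, while Dnmt3a and Tet3 are open on all 8.

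*Dnmt3a*, the second *de novo* methyltransferase, was not detected on any array by either probe. Its first probe ran from 4.20 to 4.40 and its second from 4.18 to 4.28, all below the lowest detected values. Its lowest detection p-value was 0.361. The level of *Dnmt3a* could not be compared between cell types. Both probes were annotated to the same transcript, and whether they also read other transcripts of the gene is not known here. *Tet3*, the only dioxygenase with a named probe, was also undetected throughout (4.32 to 4.60 and 4.23 to 4.54), with a lowest detection p-value of 0.0915. These values do not say that the transcripts were absent, only that the probes did not rise above the negative control beads.

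Of the maintenance genes, *Dnmt1* was lowest in MEFs and iNSCs and much the same elsewhere. It was at 7.26 in MEFs, 9.35 in NSCs and 7.96 in iNSCs. The clones were at 9.71 and 9.73, NSC 2F iPSCs at 9.89, MEF 4F iPSCs at 9.49 and ESCs at 9.69. The groups did not overlap, but NSCs lay only 0.14 below the lowest pluripotent array, within the spread between clones, whereas iNSCs lay 1.40 below NSCs and MEFs 0.69 below iNSCs. The control lines were 2.83-fold above the somatic samples, a difference that did not pass the test (log2 1.50 ± 0.54, standard error, adjusted p = 0.0848 from limma).

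*Uhrf1* had the same order of somatic cells. It was at 8.87 in MEFs, 11.95 in NSCs and 9.67 in iNSCs by its first probe, detected everywhere. It was at 12.16 and 12.43 in the clones, 12.54 in NSC 2F iPSCs, 12.45 in MEF 4F iPSCs and 12.55 in ESCs. NSCs were 0.21 below the lowest pluripotent array, which is within the spread between clones, and iNSCs were 2.28 below NSCs. The control lines were 5.10-fold above the somatic samples, which did not pass the test (log2 2.35 ± 0.76, standard error, adjusted p = 0.0654 from limma). The second probe of *Uhrf1* was undetected in MEFs (4.38) and iNSCs (4.54), at 6.10 in NSCs and between 5.89 and 7.03 on the pluripotent arrays, so that NSCs lay inside the pluripotent range, and its difference of 1.69 did not pass either (adjusted p = 0.0625 from limma when every probe was tested). Both genes depended on the NSC array: without it, *Dnmt1* was 2.08 higher on the log2 scale (adjusted p = 0.0126 from limma) and *Uhrf1* 3.25 higher (adjusted p = 0.0057), and both were called. They were also called when the mean of the clones joined the control lines as an additional line (adjusted p = 0.0386 and adjusted p = 0.0306 from limma).

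*Dnmt1* and *Uhrf1* are expressed mainly in dividing cells, so proliferation genes, among them *Top2a* and the *Mcm* helicase subunits, were read beside them. Of 16 listed, 13 had a probe and 12 of these were detected often enough to be tested. The median level of the 13 was 7.62 in MEFs, 8.72 in iNSCs and 10.13 in NSCs. It was 10.66 and 10.45 in the clones, 10.62 in NSC 2F iPSCs, 10.44 in MEF 4F iPSCs and 10.68 in ESCs. The somatic arrays had the same order in this median, and in 11 of the 12 tested genes, as in *Dnmt1* and *Uhrf1*, and *Rrm2* was the exception. Outside the proliferation list, *Tdg* and *Trim28* had this order too, whereas *Dnmt3b* and *Idh1* did not. The number of such genes on the whole array was not counted, so 11 of 12 has no share to be set against. Of the 12 genes, 2 were called higher in the control lines (*Mcm5* and *Tyms*), where 12.9% of all genes tested were. The median difference over the 12 was 1.63. Each of these 2 calls was lost under 10 of the 17 other settings tried. The part of proliferation in the values of *Dnmt1* and *Uhrf1* was not tested.

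**Figure D2:**
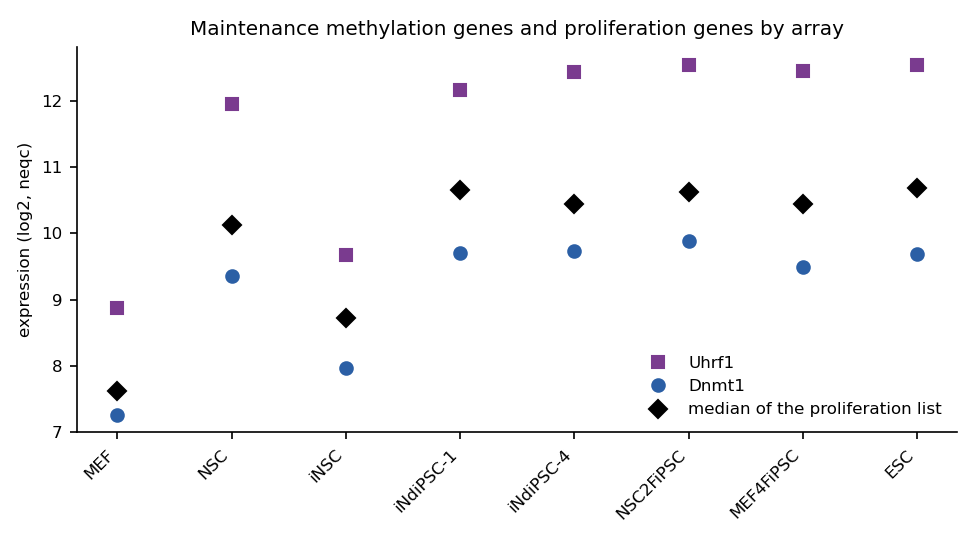
Normalised expression (log2, y axis) of Dnmt1, Uhrf1 and the median of 13 proliferation genes on the 8 arrays (x axis), 1 point for each array. All 3 are lowest in MEFs, next in iNSCs, and in NSCs lie close to the 5 pluripotent arrays, as with the proliferation median of 10.13 in NSCs against 10.44 to 10.68.

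Words of the E2F type, bound by the E2F factors of the cell cycle, were read in the same stretches of 250 bases. They were chosen because *Dnmt1* and *Uhrf1* shared the order of the somatic arrays with the proliferation genes. Genes outside that list, such as *Tdg*, had this order too. The words TTTCCCGC, TTTCGCGC, TTTGCCGC and TTTGGCGC were searched on both strands. They were found in 2 of the 14 stretches of the measured genes, 1 of 3 of *Dnmt1* and 1 of 2 of *Uhrf1*, against 1.86% of all 32851 stretches. Each word holds a CpG, and these stretches hold 26 (*Dnmt1*) and 30 (*Uhrf1*) CpGs, against a median of 6 over all stretches. The share over all stretches is therefore not that of stretches equally rich in CpGs. The 30 bases around each word are shown 5′ to 3′ on the strand of the gene (RefSeq, GRCm38.p6), with the word or its reverse complement in capitals.
Dnmt1, chr9:20952824-20952853, minus strand: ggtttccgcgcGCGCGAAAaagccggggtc
Uhrf1, chr17:56304117-56304146, plus strand: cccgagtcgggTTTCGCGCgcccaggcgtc
Both hold TTTCGCGC, on opposite strands, which begins 219 bases before that start of *Dnmt1* and 185 bases before that of *Uhrf1*. Both lie inside the annotated gene, downstream of its most upstream start. A match of letters is not evidence of binding.

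*Tdg*, the glycosylase of active demethylation, did not separate pluripotent from somatic cells. By its first probe it was at 6.25 in MEFs, 8.98 in NSCs and 8.55 in iNSCs. It was at 8.43 and 8.46 in the clones, 8.41 in NSC 2F iPSCs, 8.24 in MEF 4F iPSCs and 7.98 in ESCs. MEFs alone were low, 1.73 below ESCs, the next array. Both neural samples lay above every pluripotent array, but iNSCs by only 0.08, within the spread between clones. No neighbours above MEFs differed by more than 0.43. From ESCs (7.98) to NSCs (8.98) the range was nevertheless wider than the spread between clones. The difference between control lines and somatic samples was 0.28 ± 0.71 on the log2 scale (standard error, adjusted p = 0.79 from limma) and turned to -0.55 without MEFs (adjusted p = 0.137). The second probe of *Tdg*, annotated to another transcript, was detected on no array (4.27 to 4.37).

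Over all genes, 12.9% of the 9007 tested were called higher in the control lines and 10.4% lower. Against this, 2 of the 5 detected members were called higher and 0 lower. All 3 control lines lay above all 3 somatic samples for 25.9% of the genes tested and for 4 of the 5 members, *Tdg* being the exception. The median difference over the members was 2.35 on the log2 scale and 0.03 over all genes tested. Since members detected only in pluripotent cells, such as *Dnmt3l*, passed the detection filter through those cells, the count describes the 5 members that passed and not all 9.

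**Figure D3:**
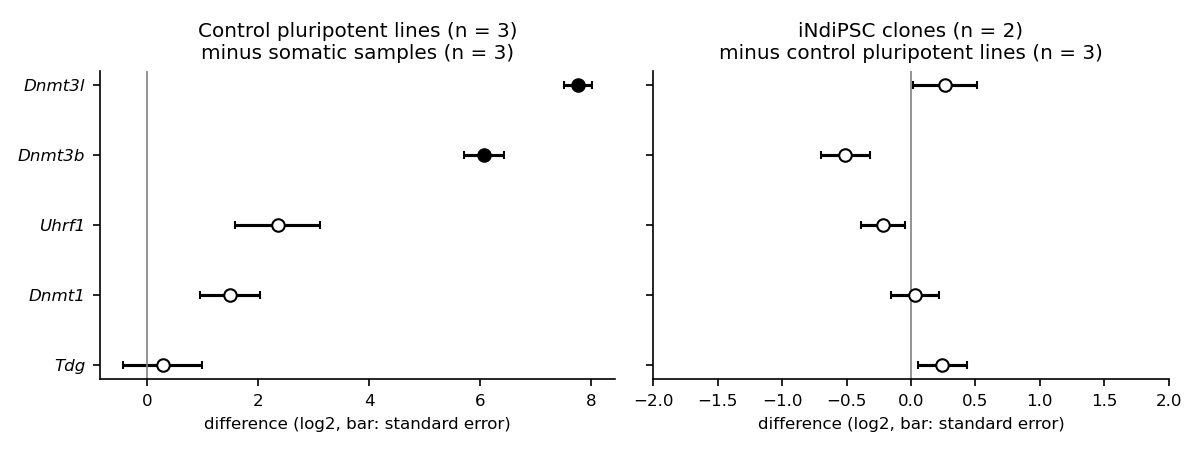
Differences (log2, x axis) of the 5 detected members (y axis) between control pluripotent lines and somatic samples and between iNdiPSC clones and control pluripotent lines, with bars of 1 standard error and filled points for genes called. In the first panel Dnmt3l (7.75) and Dnmt3b (6.07) are filled, and in the second, drawn on its own narrower axis, no point is.

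The iNdiPSC clones were then compared with the control pluripotent lines, of which NSC 2F iPSCs were also made from neural stem cells, so that this comparison does not isolate passage through such a stage. Of the 5 detected members, 0 were called, against 1.17% of 8400 genes (1 member and 1602 genes had an unadjusted p below 0.05). *Dnmt3b* was lower in both clones (11.52 and 11.85) than in all 3 control lines (12.07 to 12.31), by 0.51 ± 0.19 on the log2 scale (standard error), which did not pass the test (adjusted p = 0.219 from limma). Its second probe was lower in both clones as well, at 6.25 and 6.61 against 6.83 to 7.17 (adjusted p = 0.218 from limma). *Uhrf1* was also lower in both clones than in each control line, by 0.22 ± 0.17 (adjusted p = 0.527), whereas its second probe overlapped (5.89 and 6.15 against 6.07 to 7.03). *Tdg* was higher in both clones (8.43 and 8.46) than in each control line (7.98 to 8.41). Such a lack of overlap was common, since both clones lay below all 3 control lines in 18.8% of the genes tested and above them in 22.5%. The difference was 0.26 ± 0.25 for *Dnmt3l* (adjusted p = 0.596), 0.24 ± 0.19 for *Tdg* (adjusted p = 0.524) and 0.03 ± 0.19 for *Dnmt1* (adjusted p = 0.942, all from limma with standard errors). Between the clones the members differed by 0.46 (*Dnmt3l*), 0.32 (*Dnmt3b*), 0.28 (*Uhrf1*), 0.03 (*Dnmt1*) and 0.03 (*Tdg*), against a median of 0.18 over all genes detected in either.

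The conversions were then followed step by step, as differences between 1 array and 1 array (the clones as the mean of both), which carry no test. By the labels, MEFs and iNSCs differed in strain, so this MEF array does not hold the cells the iNSCs came from. Strain and conversion cannot be told apart between MEFs and iNSCs. From MEFs to iNSCs, *Tdg* was 4.92-fold higher and *Dnmt3b* 2.20-fold higher, and *Dnmt1* and *Uhrf1* were 1.62-fold and 1.74-fold higher. The log2 difference of *Dnmt3b*, which was close to the detection limit in MEFs, was 1.14, but 0.45 without background correction. Thus 2 of the 4 detected members were at least 2-fold apart, where 38.3% of genes were, and the median difference of the 12 detected proliferation genes was 0.98 on the log2 scale. From iNSCs to the clones, *Dnmt3l* was at least 143-fold higher, *Dnmt3b* 35.9-fold, *Uhrf1* 6.18-fold and *Dnmt1* 3.40-fold, while *Tdg* differed by -0.10 on the log2 scale. Here 4 of 5 members were at least 2-fold apart against 45.9% of genes, and the median proliferation difference was 1.68.

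The routes differed in how much the maintenance genes moved. From NSCs to NSC 2F iPSCs, *Dnmt3l* was at least 112-fold and *Dnmt3b* 53.8-fold higher, but *Dnmt1* was 1.45-fold and *Uhrf1* 1.50-fold higher and *Tdg* 1.48-fold lower, so that 2 of 5 members were at least 2-fold apart against 42.5% of genes. From MEFs to MEF 4F iPSCs all 5 were, against 47.2% of genes, with *Dnmt3b* 122-fold, *Dnmt3l* at least 106-fold, *Uhrf1* 12.0-fold, *Dnmt1* 4.68-fold and *Tdg* 3.97-fold higher. The median proliferation difference was 0.52 on the former of these routes and 2.83 on the latter. Whether the routes differ was not tested, having 1 array at each end.

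Between iNSCs and NSCs, the maintenance genes were the members at least 2-fold apart. *Uhrf1* was 4.86-fold and *Dnmt1* 2.64-fold lower in iNSCs than in NSCs, while *Dnmt3b* (1.04-fold higher) and *Tdg* (1.35-fold lower) were less than 2-fold apart. These 2 of 4 members compare with 20.2% of genes, and the median proliferation difference was -1.41. Strain and origin differed together between these samples. Between lines of the same labelled strain, 0 of 5 members were at least 2-fold apart from ESCs, in NSC 2F iPSCs (7.4% of genes) or in MEF 4F iPSCs (10.5% of genes). The members farthest from ESCs were *Dnmt3l* in MEF 4F iPSCs, 1.51-fold lower, and *Tdg* in NSC 2F iPSCs, 1.35-fold higher.

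**Figure D4:**
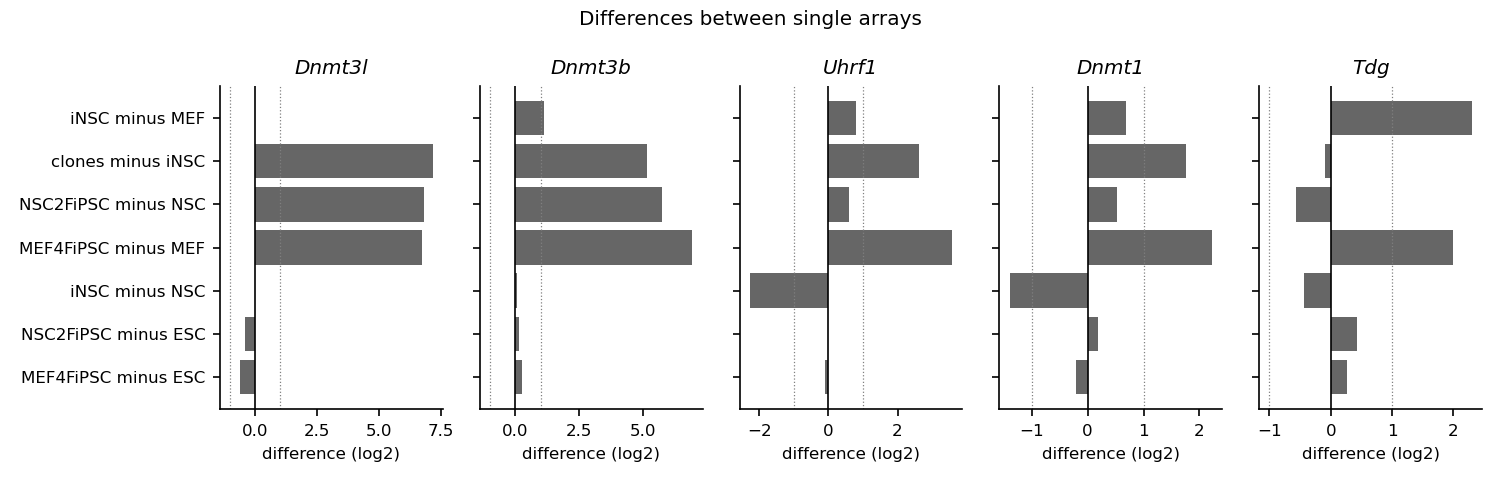
Differences (log2, x axis, each panel on its own scale) between single arrays for the 5 detected members, 1 bar for each comparison (y axis), with dotted lines at 2-fold and undetected values set to the lowest detected value. Dnmt3l, which has no bar where it was undetected on both sides, and Dnmt3b are long in the 3 steps into pluripotency, and Tdg is long only in the 2 comparisons with MEFs (4.92-fold and 3.97-fold).

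The patterns most like each member over the 8 arrays were named by Pearson's r among 8072 genes detected on at least 4 arrays. For *Dnmt3l* these were *Dppa4* (r = 0.9996), *Utf1* and *Zscan10*, and 457 genes had r above 0.95. For *Dnmt3b* they were *Faf1* (r = 0.995), *Dppa5a* and *G3bp2*, with 395 such genes. For *Dnmt1* they were *Angel1* (r = 0.994), *Cdc7* and *Fubp1*, for *Uhrf1* *Pold1* (r = 0.997), *Eif4a1* and *Lig1*, and for *Tdg* *Lin54* (r = 0.981), *Rngtt* and *Zfp770*. *Angel1* was near background, at 4.5 in MEFs and 4.72 in iNSCs, below the lowest detected values there, and at 5.5 to 5.7 elsewhere. *Tdg* had 24 genes with r above 0.95, *Uhrf1* 157 and *Dnmt1* 165. With 8 points that mostly fall into high and low arrays, r describes these arrays only and many genes reach high values.

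Other genes of the pathway were read in 8 lists of 71 genes, of which 60 had a probe and 48 were detected often enough to be tested. Between control pluripotent lines and somatic samples, 9 were called higher (18.8%, against 12.9% of all genes tested), 3 lower (6.25%, against 10.4%) and 36 were not called, with a median difference of 0.64 against 0.03 over all genes tested. Genes such as *Dppa3* that were detected only in pluripotent cells passed the detection filter through those cells. The counts therefore describe the 48 genes that passed and not all 71. Of 8 partners of maintenance methylation, 2 rose and 0 fell. *Usp7*, a deubiquitinase that stabilises DNMT1 and UHRF1, was at 7.50 to 7.77 in the somatic samples and 9.29 to 9.66 in the control lines (log2 1.91 ± 0.24, standard error, adjusted p = 0.0042 from limma). *Hdac1*, a histone deacetylase, rose by 1.53 (adjusted p = 0.011 from limma). Of 8 partners of *de novo* methylation, 1 rose, *Trim28*, the corepressor of KRAB zinc finger proteins, by 1.61 (adjusted p = 0.0213 from limma).

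Of 9 regulators or partners of TET enzymes, 3 rose and 1 fell. *Dppa3*, which protects the maternal genome from demethylation in the zygote, was not detected on the somatic arrays (4.27 to 4.43) and was at 9.91 in NSC 2F iPSCs, 7.90 in MEF 4F iPSCs and 9.32 in ESCs, at least 14.8-fold higher (adjusted p = 0.00282 from limma). *Gadd45a*, a stress-induced gene whose product was described as a partner of TDG, rose by 3.26 (adjusted p = 0.00642) and *Hmces*, which binds oxidised methylcytosine and shields abasic sites, by 2.75 (adjusted p = 0.00596). *Idh1*, whose enzyme makes the 2-oxoglutarate that TET enzymes consume, fell by 1.47 (adjusted p = 0.0222, all from limma). Of 9 base excision repair genes 2 rose, the uracil glycosylase gene *Ung* by 4.28 (5.64 in MEFs, 9.43 in NSCs and 6.42 in iNSCs, against 11.33 to 11.67 in the control lines, adjusted p = 0.0212) and *Parp1*, the poly(ADP-ribose) polymerase that marks strand breaks, by 1.95 (adjusted p = 0.0376 from limma).

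Of 2 cytosine deaminases 1 rose, *Apobec3*, known for restricting retroviruses, by 1.71 (adjusted p = 0.0118 from limma). Of 4 methyl-CpG readers 1 fell, the methyl-CpG binding repressor *Mbd1*, by 1.62 (adjusted p = 0.0277). Of 4 genes of the methyl donor cycle 1 fell, *Ahcyl1*, by 1.40 (adjusted p = 0.0343, both from limma). *Ahcyl1* encodes a relative of S-adenosylhomocysteine hydrolase that is known as a partner of the inositol trisphosphate receptor. Of 4 other DNA or RNA methyltransferases 0 were called. *Usp7*, *Dppa3*, *Gadd45a* and *Hmces* kept their call under all 11 alternatives and without each of the 6 arrays, and the other 8 called genes did not. *Hdac1* lost it without NSC 2F iPSCs (adjusted p = 0.0535), *Apobec3* without NSC 2F iPSCs or ESCs (0.0511 and 0.0523), and *Trim28* and *Idh1* without any 1 of the control lines (adjusted p of 0.0649 to 0.0807). *Ung* and *Parp1* lost it without iNSCs or any 1 control line (0.0621 to 0.123), *Ahcyl1* without NSCs or any 1 control line (0.0541 to 0.118) and *Mbd1* without any 1 array other than MEFs (0.0511 to 0.0722). These 4 genes also lost it without a detection filter (adjusted p of 0.0525 to 0.0841), and *Apobec3* without background correction, where its difference was 0.69.

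**Figure D5:**
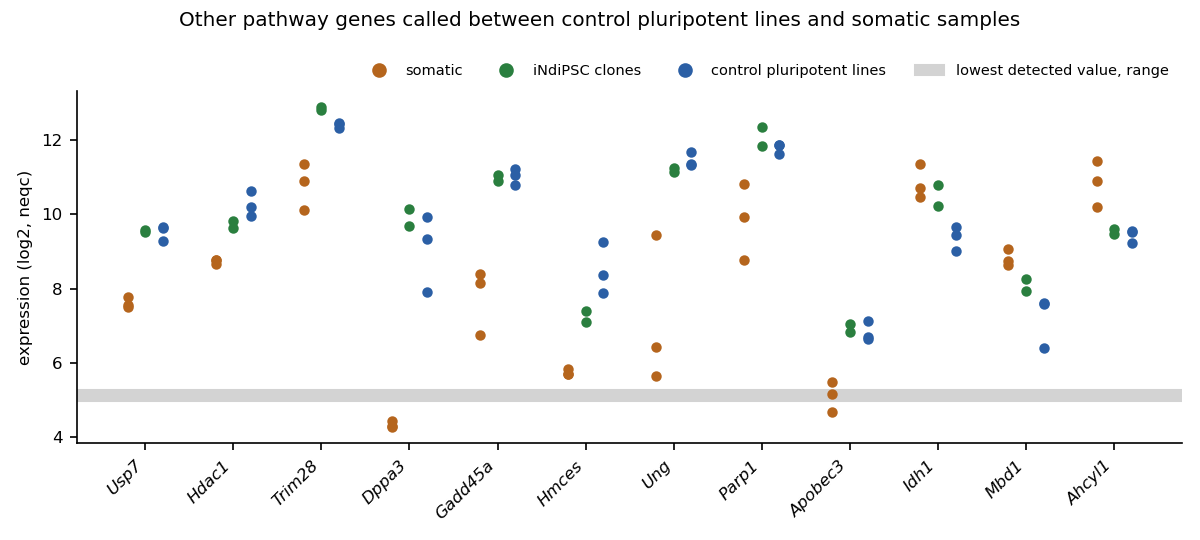
Normalised expression (log2, y axis) of the 12 other pathway genes called between control pluripotent lines and somatic samples (x axis), 1 point for each array, with the range of the lowest detected values in grey. Dppa3 lies below that range on the somatic arrays, and the somatic points of Ung spread from 5.64 to 9.43.

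In the clones, 1 of the 48 genes (2.08%) was called against the control lines, where 1.17% of all genes tested were. *Mettl14*, which encodes a subunit of the methyltransferase that forms N6-methyladenosine in RNA, was undetected in both clones (4.49 and 4.63) and at 8.28 in NSC 2F iPSCs, 7.97 in MEF 4F iPSCs and 7.91 in ESCs (log2 difference -3.49 ± 0.19, standard error, adjusted p = 0.00202 from limma). It was also undetected in iNSCs (4.55), and was at 6.98 in MEFs and 8.12 in NSCs, so that the 3 undetected arrays were the 3 labelled C3H and the 5 others B6D2F1/J. Strain and iNSC origin cannot be told apart for this gene. The call was lost without iNdiPSC-1 (adjusted p = 0.0902) and without iNdiPSC-4 (adjusted p = 0.0743 from limma). Whether the probe of *Mettl14* reads the RNA of both strains alike was not tested, so the values do not say that the transcript was lost. In these bulk samples, a lower value can otherwise stand for fewer expressing cells or for less RNA in each, which cannot be told apart.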

How the data were processed

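Total RNA of 8 mouse cell samples was hybridised to Illumina bead arrays. The authors deposited linear, uncorrected intensity values for every probe, as BeadStudio 3.2 exports them, each with its deposited detection p-value (steps of 0.00125). Log2 values that the authors had corrected for background and normalized were deposited too. The submitters' processing notes name RMA and lumi for them and give no settings. This matrix was used as an alternative only (median 3.46 in each column). The step that set its scale is not given in the sources used here.

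Scanner intensities were processed with neqc of limma 3.58.1 (R 4.3.3), which estimates background by way of the detection p-values, then applies an offset of 16, quantile normalization and log2. Genes were named by the RefSeq symbol of the gene identifier in the platform's annotation, or by the annotation's own symbol where none matched. Of 25697 probes, 23978 carried 1 symbol. In tests across genes, a gene was represented by its probe of highest mean, if detected (p below 0.01) on at least 2 arrays of the fit. Differences were tested with lmFit and eBayes, and a call needed at least 2-fold and an adjusted p (Benjamini-Hochberg over all genes tested) below 0.05. Where a sample was undetected, folds were computed with the lowest detected value of its array in its place and are given as "at least". The number of arrays limits the precision. The fits were tested on simulated data. Changes of 1.5, 3 and 6 (log2) were recovered for 23.9%, 86.6% and 90.9% of changed genes between control lines and somatic samples. Between clones and control lines the shares were 59.7%, 89.6% and 98.5%. False calls were 5.63% and 2.94% of the calls in these simulated data. A gene that was not called can therefore still differ. The simulation changed only a small share of the genes and drew normal noise independently for each value. Its shares need not hold for the real calls. Columns that matched no sample numbered 0.

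The members, the pathway, marker and proliferation lists and the tests were chosen with earlier results of these data known. Genes named were all members, up to 4 called genes for each pathway list and direction, and the 3 genes most like each member that spanned at least 2 log2 units. *Mcm5* and *Tyms*, the proliferation genes called, were named after their values were seen. Other settings tried were 75th percentile scaling, omitting the background correction, the authors' matrix, values below detection at the floor, other detection filters, every probe, a trend in eBayes, no fold threshold, the clones as an additional control line, and each array left out in turn.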

Additional observations from a re-analysis of the deposited data

Results flagged for a closer look

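*Tdg* differed with opposite signs in the steps into pluripotency, but only its difference from MEFs was beyond the spread between the sister clones. It was higher by 1.99 on the log2 scale in MEF 4F iPSCs than in MEFs, and lower by 0.57 in NSC 2F iPSCs than in NSCs (-0.57) and by 0.10 in both clones on average than in iNSCs (-0.10). The 2 smaller differences lie within the 0.61 that 95% of genes stayed within between the sister clones. The level in MEFs was 6.25, against 7.98 to 8.98 on the other 7 arrays. With 1 array at each end, the difference between the steps was not tested.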

How the results depend on the processing

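The calls of *Dnmt3b* and *Dnmt3l* between control pluripotent lines and somatic samples held under the 11 alternatives and without each array, with adjusted p from 3.01e-06 to 0.00519. *Dnmt1* and *Uhrf1* were called only with the clones as an additional control line and without NSCs, so that the members called were 2, and 4 in these settings (2 to 4 with arrays left out). The 2101 genes called became 1240 without background correction and 713 (without NSC 2F iPSCs) to 3172 (without MEFs) with arrays left out, with 1086 without MEF 4F iPSCs and 914 without ESCs. Of the genes called, 55.5% were higher, and 60.5% with 75th percentile scaling. *Tdg* ranged from -0.55 without MEFs to 0.81 without NSCs.

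Between the clones and the control lines, 98 genes were called, against 39 without background correction, 63 with detection on 3 arrays, 65 without a detection filter and 158 over every probe, and 2 (without either clone) to 112 (without ESCs) with arrays left out, with 37 without NSC 2F iPSCs. Members called stayed 0 in each. *Dnmt1*, at 0.03, ranged from -0.071 without MEF 4F iPSCs to 0.13 without NSC 2F iPSCs. Members at least 2-fold apart between iNSCs and MEFs were 1 without background correction, against 2, as *Dnmt3b* then differed by 0.45 on the log2 scale. The causes were not tested, apart from the smaller or larger numbers of genes or arrays that these settings use. Probes near background (*Dnmt3a*, *Tet3*, the second probe of *Tdg*) give no comparison, and leaving out a clone assumes that the remaining one varies like the control lines.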
